A study of Mus musculus with 6 samples.

Results

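miR-26a-5p and miR-26b-5p (mmu-miR-26a-5p and mmu-miR-26b-5p in the deposited table), the guide strands of the miR-26 family, were followed in extracellular vesicles of primary mouse hepatocytes with and without palmitic acid. They were taken by name and are 2 of the 1976 mature miRNAs in the deposited table, and both were among the 181 miRNAs abundant enough to test. All 6 libraries came from hepatocytes of wild-type C57BL/6J mice, cultured as primary cells, and the labels call the vesicles exosomes. The control group (0 µM palmitic acid) and the palmitic acid group (600 µM) had 3 libraries each. The sources used here do not give the length of exposure, the age of the mice, the vehicle, or whether replicates are different mice or different dishes. Each p-value therefore reflects the spread among these libraries alone, and that spread may be technical. The series concerns a fatty liver and its vesicle miRNAs as a source of endothelial dysfunction, and palmitic acid, a saturated fatty acid, serves to load the cultured hepatocytes with lipid.

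miRNAs guide Argonaute proteins to transcripts mainly through the seed, the bases from position 2 to 8, so miRNAs with the same seed share most of their predicted targets. The miR-26 family is expressed in most tissues and is abundant in liver. miR-26a is known for restraining the cell cycle through cyclins D2 and E2 and for repressing Ezh2, a histone methyltransferase, and in mouse liver it has been linked to insulin sensitivity and lipid metabolism. Each miR-26 hairpin lies in a gene of a small family of C-terminal domain phosphatases and is transcribed together with its host.

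The sequences show how alike the members are, and which bases can tell their reads apart. They are RefSeq entries on GRCm38.p6, written 5′ to 3′ with the seed in capitals.
miR-26a-5p: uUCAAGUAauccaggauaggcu
miR-26b-5p: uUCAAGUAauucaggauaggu
miR-26a-5p has 22 bases and miR-26b-5p 21, and 19 of the 21 bases they have in common positions are identical. Counted from the 5′ end, with the base of miR-26a-5p first, the differences are C11U and C21U, both outside the seed. Among 1679 mature mouse miRNAs in the reference, no other has this seed. A read of either strand can thus be assigned by the base at position 11, but no source used here says how mismatches, or reads matching several miRNAs, were handled.

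miR-26a-5p comes from 2 hairpins with the same mature sequence, so its reads cannot be divided between them, whereas miR-26b-5p comes from 1. The hairpins are shown with both arms in capitals, because the 3p arms, which differ, are the reads that could separate the loci.
Mir26a-1: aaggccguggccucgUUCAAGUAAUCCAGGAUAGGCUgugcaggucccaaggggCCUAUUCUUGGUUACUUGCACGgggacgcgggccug
Mir26a-2: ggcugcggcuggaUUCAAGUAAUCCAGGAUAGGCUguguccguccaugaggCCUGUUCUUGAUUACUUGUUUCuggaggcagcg
Mir26b: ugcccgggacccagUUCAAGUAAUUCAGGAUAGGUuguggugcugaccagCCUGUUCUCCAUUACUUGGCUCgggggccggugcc
Mir26a-1 lies on the plus strand of GRCm38 chromosome 9, 119031796 to 119031885, in an intron of all 3 annotated transcripts of Ctdspl that span it. Mir26a-2 lies on chromosome 10, 126995530 to 126995613, plus strand, in an intron of the 1 spanning transcript of Ctdsp2. Mir26b lies on chromosome 1, 74394310 to 74394394, plus strand, in an intron of both spanning transcripts of Ctdsp1. All host genes are protein-coding and on the same strand as their hairpin.

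The deposited values are on a log2(adjusted count + 1) scale, and whole reads were recovered from them by inverting the adjustment. Recovered totals ran from 95237 to 657564 reads in controls and from 613488 to 799143 with palmitic acid. miR-122, the dominant hepatocyte miRNA, took, with miR-122b from the same locus and both arms of each, 69.2% to 87.7% of control reads and 11.7% to 15.3% of palmitic acid reads. This left 29340 to 80734 control reads and 534307 to 676820 palmitic acid reads for all other miRNAs. Of 5 hepatocyte markers, 4 were well covered in all libraries and miR-802-5p had 11, 4 and 0 reads in the palmitic acid libraries and none in controls. The labelled cell type thus held its leading markers, at a sum of 637336 to 825355 RPM (reads scaled to a common library total) in controls and 302784 to 462452 with palmitic acid.

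Both guide strands rose with palmitic acid, miR-26b-5p by 16.3-fold and miR-26a-5p by 5.02-fold on the log2(adjusted count + 1) scale. miR-26a-5p stayed the more abundant member in all 6 libraries. Both members passed the test in the rising direction, as did 42.0% of all tested miRNAs, so a rise alone does not set them apart.

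For miR-26a-5p the deposited log2 values were 9.88, 9.43 and 8.35 across control replicates 1 to 3, and 11.46, 11.59 and 11.59 across palmitic acid replicates 1 to 3. The groups did not overlap, and controls spread over a wider range than the palmitic acid libraries, which nearly coincided. These values rested on 303, 253 and 151 recovered control reads and on 5765, 8802 and 5196 reads with palmitic acid. The level was 9.22 ± 0.78 against 11.55 ± 0.07 (SD, n = 3), a log2 change of 2.33 (SE 0.45, 95% interval 1.30 to 3.35, limma adjusted p = 0.00262).

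miR-26b-5p, in the same order and on the same log2 scale, stood at 6.12, 6.46 and 5.40 without palmitic acid and at 9.89, 9.95 and 10.22 with it. Its groups lay further apart than those of miR-26a-5p, with no overlap. The control values rest on only 22, 32 and 19 reads, against 1943, 2838 and 2001 with palmitic acid. The level was 6.00 ± 0.54 against 10.02 ± 0.17 (SD, n = 3), a log2 change of 4.02 (SE 0.44, 95% interval 3.0 to 5.04, limma adjusted p = 1.4e-04). Groups that do not overlap, with palmitic acid higher, were found for 48.6% of all tested miRNAs on this scale.

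**Figure D1:**
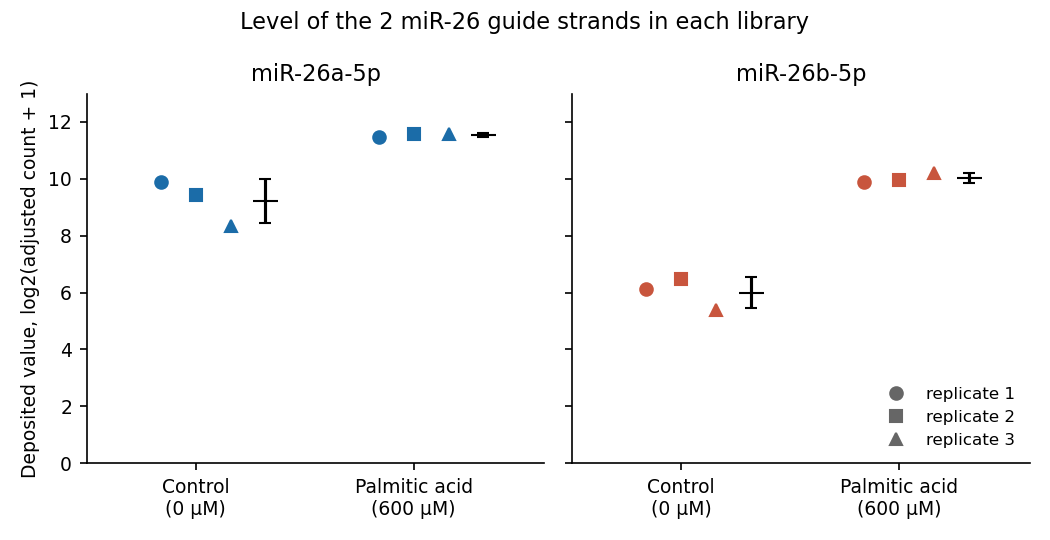
Deposited value, log2(adjusted count + 1), of miR-26a-5p (left) and miR-26b-5p (right) in each library, by group. Symbols give the replicate number, and the black mark with bars is the mean ± SD of 3 libraries; every palmitic acid library lies above every control library for both members.

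In library order, miR-26a-5p was the 20th, 24th and 38th most abundant miRNA by reads across control replicates 1 to 3. It was the 16th, 14th and 12th across the palmitic acid libraries. miR-26b-5p moved from places 85, 66 and 95 to places 29, 26 and 25. Both members thus stood higher in the order of every palmitic acid library, and the move of miR-26b-5p covered more places. How many other tested miRNAs moved up likewise was not counted. In share of all reads, 55.8% of them had every palmitic acid library above the controls.

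As a share of all recovered reads, miR-26a-5p held 0.318% (95% interval, Clopper-Pearson, 0.283 to 0.356), 0.0385% (0.0339 to 0.0435) and 0.0598% (0.0507 to 0.0702) of the control libraries, replicates 1 to 3. With palmitic acid it held 0.721% (0.703 to 0.740), 1.16% (1.13 to 1.18) and 0.847% (0.824 to 0.870). Control replicate 1 was well above the other controls and still below every palmitic acid library. The means were 0.139% ± 0.156 and 0.908% ± 0.223 (SD, n = 3), with p = 0.1 in a two-sided exact permutation test, the lowest value attainable with groups of 3.

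miR-26b-5p held 0.0231% (0.0145 to 0.0350), 0.00487% (0.00333 to 0.00687) and 0.00753% (0.00453 to 0.0118) of control reads. In the palmitic acid libraries its share was 0.243% (0.232 to 0.254), 0.373% (0.359 to 0.386) and 0.326% (0.312 to 0.341). Again control replicate 1 was the highest control, and the groups did not overlap. The means were 0.0118% ± 0.00985 and 0.314% ± 0.0656 (SD, n = 3, exact permutation p = 0.1). Together the members made up 0.0433% to 0.341% of control reads and 0.965% to 1.53% of palmitic acid reads. On this share, 55.8% of tested miRNAs had palmitic acid libraries that were all above the controls, and 5.52% had them all below. The intervals cover counting error only, because PCR makes several reads of a single molecule.

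Because the miR-122 arms fill most of a control library, the shares were also taken over the remaining reads, and here the members parted. miR-26a-5p held 1.03%, 0.313% and 0.287% of these reads in the controls, replicates 1 to 3, but 0.852%, 1.31% and 0.972% with palmitic acid. The groups overlapped, since control replicate 1 exceeded palmitic acid replicates 1 and 3 (exact permutation p = 0.3). miR-26b-5p held 0.0750%, 0.0396% and 0.0361% against 0.287%, 0.422% and 0.375%, without overlap (exact permutation p = 0.1). That held for 36.5% of tested miRNAs in the same direction. A limma fit of log2 RPM scaled to these reads gave 1.18 for miR-26a-5p (SE 0.53, adjusted p = 0.0981), which did not pass, and 2.91 for miR-26b-5p (SE 0.44, adjusted p = 0.00142), which did, as did 31.5% of tested miRNAs in that direction.

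**Figure D2:**
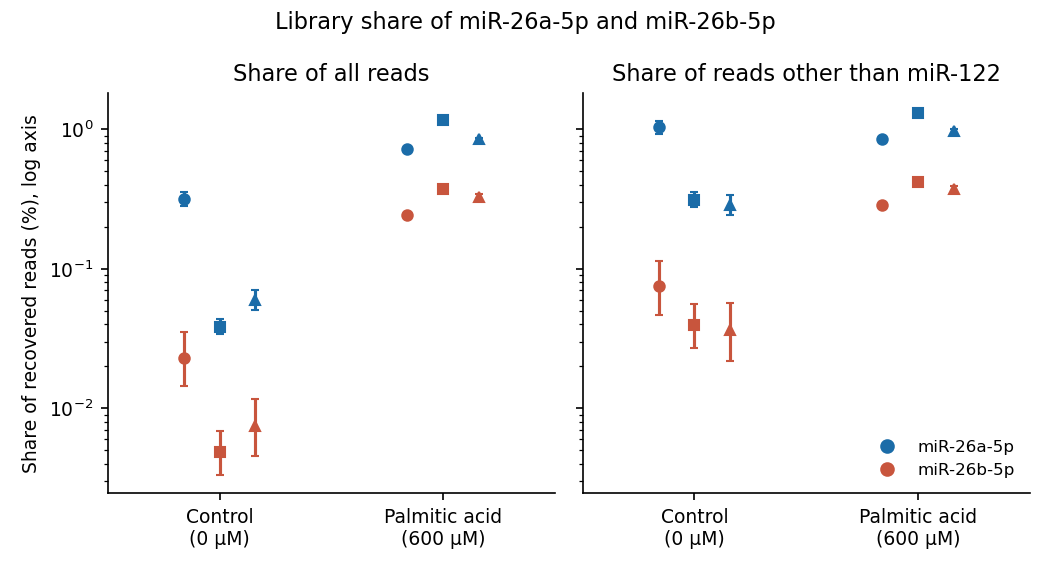
Share of miR-26a-5p (blue) and miR-26b-5p (red) in each library, as a percentage of all recovered reads (left) and of the reads left after miR-122 and miR-122b (right), on a log axis. Circles, squares and triangles are replicates 1, 2 and 3 and bars are 95% Clopper-Pearson intervals; on the right, miR-26a-5p in control replicate 1 (1.03%) lies among the palmitic acid libraries, while miR-26b-5p stays separated.

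Control replicate 1, the shallowest library, had the highest sums of 4 of the 6 lists of markers of other cells. The 3 erythroid markers summed to 5702 RPM there, against 38.0 and 218 in the other 2 controls, while the palmitic acid range was 24.5 to 160, with miR-144-3p at 0 reads in all libraries. The 3 striated muscle markers summed to 2363, against 95.8 and 1023 in the other controls and 26.3 to 50.1 with palmitic acid, with miR-133a-3p at 0 reads throughout. The 4 stellate cell and fibroblast markers summed to 2153 there, against 157 and 507 in the other controls and 463 to 599 with palmitic acid. The 5 immune and Kupffer cell markers summed to 252 there, against 1.52 and 43.6 in the other controls and 52.2 to 207 with palmitic acid. The other lists were highest elsewhere: the 2 endothelial markers summed to 2961, 865 and 3420 in control replicates 1 to 3 and to 3743 to 4957 with palmitic acid. The 5 biliary and other epithelial markers summed to 137, 1.52 and 206 and to 11.4 to 33.8, highest in control replicate 3. The part of any of these RNAs in the miR-26 values was not tested. Without control replicate 1 the log2 change was 2.66 for miR-26a-5p (adjusted p = 0.00267) and 4.09 for miR-26b-5p (adjusted p = 5.5e-04), so both calls were kept.

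The ratio of the members to each other does not depend on how a library is scaled, and it shifted toward miR-26b-5p. For each read of miR-26b-5p there were 13.8 reads of miR-26a-5p in control replicate 1 (95% interval 8.93 to 22.3), 7.91 in replicate 2 (5.46 to 11.8) and 7.95 in replicate 3 (4.92 to 13.6). With palmitic acid there were 2.97 (2.82 to 3.13), 3.10 (2.97 to 3.24) and 2.60 (2.47 to 2.74). No control interval reached any palmitic acid interval, although few control reads make the control intervals wide. These intervals cover counting error only, not the spread among libraries. Those of palmitic acid replicates 2 and 3 did not meet each other either.

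The control ratio averaged 9.88 ± 3.38 and the palmitic acid ratio 2.89 ± 0.26 (SD, n = 3). Expressed as a share of the reads of both members, miR-26b-5p took 6.77%, 11.2% and 11.2% from control replicate 1 through 3, and 25.2%, 24.4% and 27.8% in the treated libraries. On the log2 scale, with 0.5 added to each read number, the ratio changed from 3.22 ± 0.46 to 1.53 ± 0.13 (SD, n = 3), a difference of -1.7. A two-sided exact permutation test returned p = 0.1, the lowest attainable. Leaving out any 1 library gave differences between -1.83 and -1.43. Over all tested miRNAs the quartiles of the log2 change were -0.89 and 3.92, further apart than the 2 members were. How many other pairs of miRNAs shifted as much was not counted, so the shift does not set this pair apart.

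**Figure D3:**
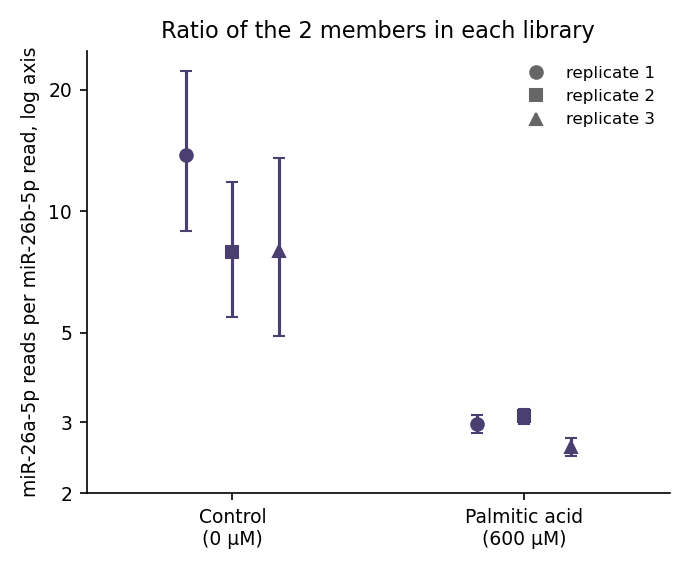
Reads of miR-26a-5p per read of miR-26b-5p in each library, on a log axis, by group. Symbols give the replicate number and bars are 95% intervals from the exact binomial interval of the share of miR-26b-5p; controls lie between 7.91 and 13.8 and palmitic acid libraries between 2.60 and 3.10.

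The members differ in base composition, with 40.9% G and C in miR-26a-5p and 33.3% in miR-26b-5p, against a median of 45.5% over the 161 tested miRNAs with a reference sequence. With a linear trend on this content removed from each library, the log2 change was 1.65 for miR-26a-5p (SE 0.40, adjusted p = 0.00896) and 2.61 for miR-26b-5p (SE 0.40, adjusted p = 8.6e-04). Both calls were kept, and the difference between the members was 0.96 in place of 1.7 on the log2 scale. The part of base composition in the shifted ratio was not otherwise tested.

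The 3p arms, the passenger strands of the hairpins, were close to absent. miR-26a-1-3p had no read in any library, which allows up to 0.0152% 3p reads beside the 19763 miR-26a-5p reads of the palmitic acid group. miR-26a-2-3p had 12 reads, all in palmitic acid replicate 2. These 12 reads are the only ones here that can be tied to a single miR-26a locus, Mir26a-2, and they say nothing of how the guide reads divide between the loci.

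miR-26b-3p was read 5, 11 and 1 times in the palmitic acid libraries, replicates 1 to 3, or 0.250% (95% Clopper-Pearson interval 0.146 to 0.40) of the reads of both Mir26b arms. No 3p read of any of the hairpins was found in controls. The 73 miR-26b-5p reads of the control group allow a 3p share of up to 4.11%, well above the share with palmitic acid, so a change of the arm ratio was not detectable at this depth. None of the 3p arms passed the filter on low values, and none was tested. The small control values deposited for miR-26b-3p (0.205, 0.18 and 0.137 on the log2 scale) stand for 0 reads.

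Set among all tested miRNAs, the members took different places. The median log2 change of the 181 tested miRNAs was 1.94, with quartiles of -0.89 and 3.92, and 76 rose, 26 fell and 79 passed in neither direction. miR-26b-5p ranked 42 by change and 23 by p, and its 4.02 was above the upper quartile. miR-26a-5p ranked 81 by change and 55 by p, and its 2.33 was 0.39 above the median. Relative to the median change, miR-26b-5p still passed (2.09, SE 0.44, limma adjusted p = 0.00459), as did 26.5% of tested miRNAs in that direction and 32.6% in the other, and miR-26a-5p did not (0.39, SE 0.45, adjusted p = 0.485). The other scalings moved that median to between 1.15 and 2.99. The median also depended on which miRNAs were tested, at 0.20 over 1058 without any filter and 1.80 over 110 with a filter at 50. Without palmitic acid replicate 1, 2 or 3 it was 0.89, 1.1 and 0.93. Without control replicate 1, 2 or 3 it was 1.42, 2.15 and 1.74. miR-26a-5p stayed at 2.33 under both filter choices and at 1.89 to 2.66 with 1 library left out, so its distance from the median depends on these choices. With the trend on G and C content removed, the median was 1.93 over 161 miRNAs. There miR-26b-5p stood at 2.61, rank 64, and miR-26a-5p at 1.65, rank 87 and below that median. The distance of miR-26b-5p from the median thus also depends on processing. The direction of both members was upward under every scaling tried.

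**Figure D4:**
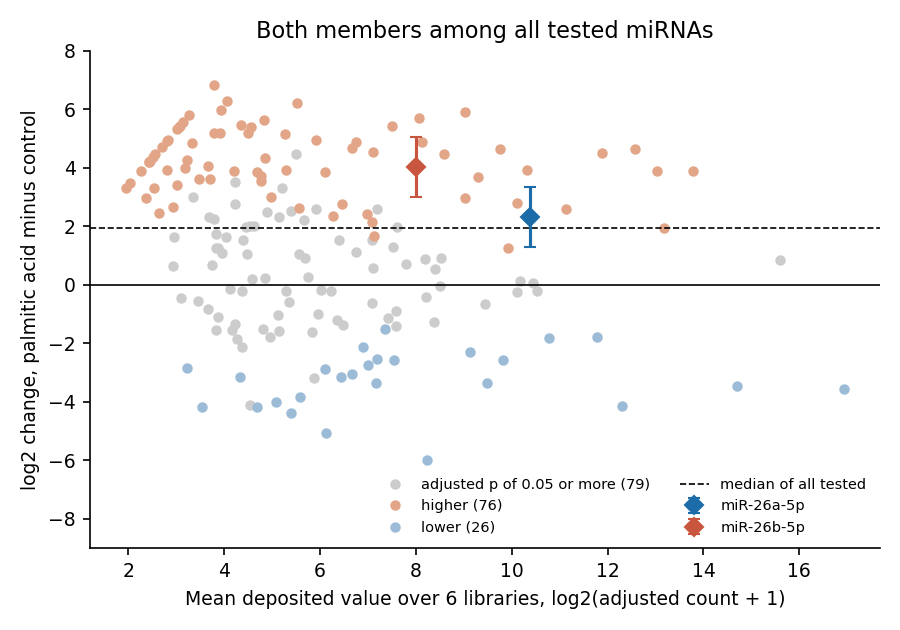
Log2 change, palmitic acid minus control, against the mean deposited value over 6 libraries for the 181 tested miRNAs, coloured by whether the limma adjusted p was below 0.05. Diamonds with 95% intervals mark miR-26a-5p (2.33) and miR-26b-5p (4.02), and the dashed line is the median change of 1.94, which runs through the interval of miR-26a-5p and below that of miR-26b-5p.

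By mean level over all 6 libraries, miR-26a-5p ranked 15 of 181 at 10.38 on the log2(adjusted count + 1) scale and miR-26b-5p ranked 39 at 8.01. The miRNAs next above miR-26a-5p were let-7c-5p (10.77), let-7a-5p (10.52) and miR-126a-3p, an endothelial miRNA (10.44), and those next below were let-7i-5p (10.31), miR-30d-5p (10.17) and miR-182-5p (10.12). miR-24-3p (8.18), miR-378c (8.14) and miR-7b-5p (8.06) stood next above miR-26b-5p, and miR-27a-3p (7.79), miR-3535 (7.61) and miR-5099 (7.59) next below. All of these lay closer to the member than its own SD over the 6 libraries (1.37 for miR-26a-5p and 2.23 for miR-26b-5p). That SD includes the change with palmitic acid, so it does not measure the error of the mean level. Whether the order among them is resolved was not tested.

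Likeness of pattern was measured as the root mean square difference of log2 values over the 6 libraries, each miRNA centred on its own mean. Most like miR-26a-5p was miR-152-3p, a member of the miR-148 family (0.16), with deposited values of 5.68, 5.40 and 4.21 for the controls against 7.27, 7.28 and 7.79 for the treated libraries. miR-455-5p (0.34), miR-30e-5p (0.46), miR-3962 (0.58) and let-7g-5p (0.64) followed. Like miR-26a-5p, miR-152-3p was lowest in control replicate 3, on 16, 15 and 8 control reads.

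Most like miR-26b-5p was let-7f-5p (0.23), with control values of 10.80, 11.87 and 10.59 against 14.85, 14.83 and 15.23 after palmitic acid. Next came miR-187-3p (0.32), miR-21a-5p (0.35), miR-29c-5p (0.37) and miR-221-5p (0.40). miR-187-3p, miR-29c-5p and miR-221-5p had no control read, so the adjustment alone sets their control values, and their likeness rests on the palmitic acid libraries. The members were not each other's nearest match. At a difference of 0.89, miR-26b-5p came 28th among the miRNAs closest to miR-26a-5p, and miR-26a-5p came 40th for miR-26b-5p. With 6 libraries in 2 groups, this measure mostly orders miRNAs by the size of their change.

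Other miRNAs that act on the same processes were compared from listed sets. Of 6 miRNAs that repress Ezh2 as miR-26a does, 3 were abundant enough to test, and all 3 rose, with a median log2 change of 5.44, where 42.0% of all tested miRNAs rose and their median was 1.94. miR-101a-3p rose by 4.65 (SE 0.53) and miR-101b-3p by 5.44 (SE 0.56), from 103, 40 and 66 to 13367, 13388 and 4424 reads for the first and from 11, 13 and 7 to 3538, 3983 and 1206 for the second. miR-101c rose by 5.46 (SE 1.18) from 0, 6 and 0 control reads. It passed the filter only because its palmitic acid libraries were high, and the related sequences of the miR-101 members make their single values uncertain. All 3 tested are miR-101 members, so the count and the median are no support. miR-138-5p, miR-214-3p and miR-124-3p had at most 6 reads in any library and were not tested.

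Among miRNAs tied to insulin and lipid metabolism in liver, as miR-26a is, 7 of 9 tested rose, 0 fell and 2 did not pass, and the median log2 change was 4.34, beside 42.0% rising and 1.94 over all tested miRNAs. The most abundant were miR-27b-3p, at 1.26 (SE 0.34), miR-29a-3p, at 3.69 (SE 0.82), miR-378a-3p, at 4.45 (SE 0.75), and miR-143-3p, which did not pass (-0.89, SE 0.56, limma adjusted p = 0.192). Of the 7 that rose, 4 passed the filter only through the palmitic acid libraries, which fixes their direction, so the count and the median are no support: miR-34a-5p, a p53 target, had 0 control reads, miR-29c-3p 0, 1 and 0, miR-107-3p 7, 3 and 0, and miR-103-3p 18, 2 and 1. The other one that did not pass was miR-29b-3p, at 3.32 (SE 1.41, limma adjusted p = 0.0776). Relative to the median change, 4 of the 9 were higher and 1 lower, and miR-27b-3p and miR-143-3p stood below that median, by -0.68 and -2.83. Scaled to reads other than miR-122 the counts were also 4 higher and 1 lower. Without palmitic acid replicate 1, 2 or 3 only 7 were tested, and 3, 4 and 4 of them rose.

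For miRNAs that restrain cyclins and their kinases, the role best known for miR-26a, 2 of 4 tested rose, 1 fell and 1 did not pass, and the median log2 change was 1.26, beside 42.0% rising and 14.4% falling over all tested miRNAs. miR-16-5p rose by 2.76 (SE 0.96), from 32, 18 and 3 control reads to 400, 759 and 387. With 3 reads in control replicate 3, it passed the filter only with palmitic acid libraries counted. miR-34a-5p, with no control read, could only rise. The number that rose and the median of this set are therefore no support. let-7b-5p fell by 2.58 on the log2 scale (SE 0.40), and let-7a-5p stood at -0.23 (SE 0.42, limma adjusted p = 0.665). Relative to the median change, 1 of these 4 was higher and 2 were lower, and scaled to library totals 2 were higher and 0 lower. Without palmitic acid replicate 1, 2 or 3, 0 of the 3 still tested rose and 1 fell, with medians of -0.033, -0.17 and -0.50.

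In a set of 10 broadly expressed miRNAs, all tested, 4 rose, 0 fell and 6 did not pass, and the median log2 change was 1.71, beside 42.0% rising over all tested miRNAs. The median was 0.67 without control replicate 3, and 2.02 over 8 of them with the trend on G and C content removed, where 5 rose and 1 fell. miR-21a-5p rose by 3.89 (SE 0.47), whereas let-7a-5p, miR-30d-5p (0.12, SE 0.40) and miR-191-5p (0.91, SE 0.59) did not pass. miR-103-3p also rose, but with 18, 2 and 1 control reads it passed the filter only through the palmitic acid libraries. miR-16-5p, with 32, 18 and 3 control reads, also needed palmitic acid libraries to pass it. The number that rose and the median of this set are therefore no support. Relative to the median change, 3 of the 10 were higher and 4 lower, and scaled to reads other than miR-122, 3 were higher and 2 lower. These sets were chosen with earlier results of these data known and are descriptions only.

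**Figure D5:**
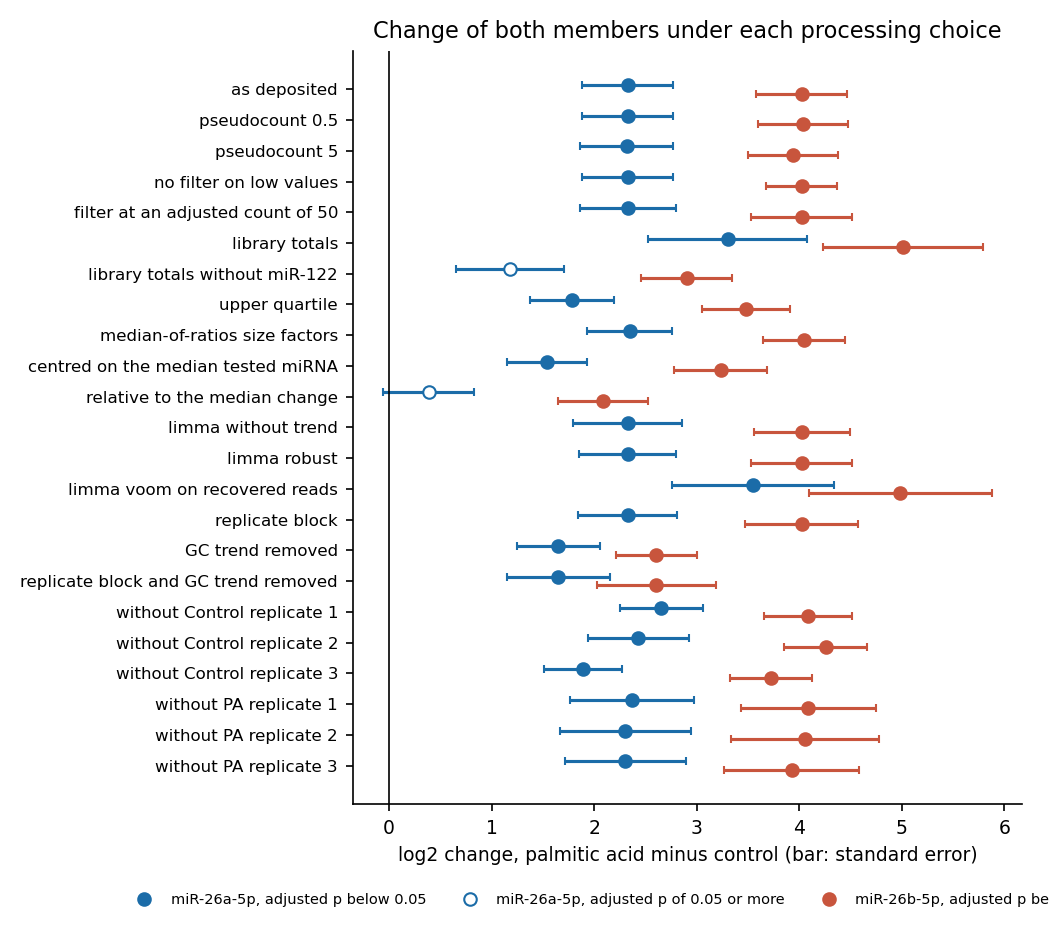
Log2 change, palmitic acid minus control, of miR-26a-5p (blue) and miR-26b-5p (red) as deposited and under each processing choice, with standard errors. Open circles have a limma adjusted p of 0.05 or more; they occur for miR-26a-5p alone, scaled to reads other than miR-122 (1.18) and relative to the median change (0.39).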

How the data were processed

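Small RNA libraries of hepatocyte vesicles were made with an NEBNext Multiplex small RNA kit after Trizol extraction, as the labels' protocols state. Bowtie2, bedtools, GRCm38 and mm10 are listed in the submitters' processing notes, without versions or settings for mismatches and multi-mapping. The authors deposited a table named as raw counts whose values are on a log2 scale. They were matched by log2(adjusted count + 1), the adjusted count being a negative binomial quantile adjustment of whole reads to a common library size. No label states this step, and libraries not analysed here may have entered it: 108 rows hold small values with no read recovered. Inverting it, with 1 factor per library and a dispersion of 1.39, left a median absolute difference of 1.6e-04, and 99.5% of the 4387 values that could be tested came out whole within 0.0015 of the log2 value. The inversion and the fit were run on simulated data made with the same adjustment, library factors and dispersion. Such data cannot show whether the inferred adjustment is the one the submitters used. Recovered reads are estimates from this model. Libraries of a group differed beyond sampling noise (chi-square per degree of freedom 79.0 to 478).

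Levels were compared with limma 3.58.1 (R 4.3.3, trend on the mean, group term only) on the deposited log2 values of the 181 miRNAs reaching an adjusted count of 10 in 3 or more libraries, with Benjamini-Hochberg adjustment over all 181 and a threshold of 0.05. The adjustment had been fitted by the submitters, so scaling to library totals, to totals without miR-122, and other scalings were alternatives, as were pseudocounts, filters, a replicate block, removal of a trend on G and C content, and leaving out each library. Shares and the ratio were compared by exact permutation tests (scipy 1.17.1); intervals of shares are Clopper-Pearson at 95%, and a count of 0 allows up to 3 counts. The text names the members, their arms, the 3 miRNAs next above and below each in level, the 5 closest in pattern, and listed miRNAs. The members and lists were chosen with earlier results of these data known. Sequences are RefSeq's (GRCm38.p6), and 1677 table rows matched one.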

Additional observations from a re-analysis of the deposited data

How the results depend on the processing

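Across the 22 alternatives both members kept an upward direction. miR-26b-5p passed in all 22, with log2 changes of 2.09 to 5.01, and miR-26a-5p in 20, with 0.39 to 3.55. It did not pass scaled to library totals without miR-122 (1.18, adjusted p = 0.0981) or relative to the median change (0.39, adjusted p = 0.485), which subtracts the median by construction; the cause of the first was not tested. The number of miRNAs called was 102, and 47 to 115 with 1 library left out; it fell to 47, 50 and 52 without palmitic acid replicates 1, 2 and 3, where fewer miRNAs were tested (146, 146 and 142). Without any filter 148 were called, 88 higher and 60 lower. The split of higher and lower calls was 76 and 26 as deposited, 89 and 8 by library totals, 94 and 9 by voom on recovered reads, 57 and 41 without miR-122, 65 and 40 centred on the median, 69 and 37 by upper quartile, and 48 and 59 relative to the median change. With 1 library left out the log2 change ran from 1.89 to 2.66 for miR-26a-5p and from 3.73 to 4.26 for miR-26b-5p, and the difference in log2 ratio from -1.83 to -1.43. The difference in share of all reads ran from 0.645 to 0.862 and from 0.273 to 0.338 percentage points for miR-26a-5p and miR-26b-5p, and in share of other reads from 0.368 to 0.744 and from 0.281 to 0.348.

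Libraries with the same replicate number correlated at 0.21, 0.15 and 0.04 in their deviations. Control and palmitic acid libraries with different numbers correlated at -0.18 to 0.06. As not every pair was over 0.1 and no label says what a number marks, the numbers were not taken as pairs, which does not show that nothing was shared; control replicate 3 correlated best with palmitic acid replicate 2. With the replicate block, 111 miRNAs were called, and the limma adjusted p was 5.5e-04 for miR-26a-5p and 8.2e-06 for miR-26b-5p. The paired exact permutation p of the ratio and of both shares of all reads was 0.25, the smallest for 3 pairs. For the share of reads other than miR-122 it was 0.25 for miR-26b-5p and 0.5 for miR-26a-5p. With the block and the G and C trend removed, 98 were called, with 1.65 and 2.61 for the members. Control reads of miR-26b-5p (19 to 32) limit its control level and the ratio, and no 3p arm could be compared between the groups.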
